A study of Mus musculus with 6 samples.

Results

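The expression of 10 genes that make or remove reactive oxygen species was described across the cells of the mouse proximal pulmonary artery (PA), out of 53647 genes listed. The members were chosen by symbol and each symbol was found on 1 line. They comprised 3 NADPH oxidase parts (Nox4, Cybb and Cyba), 3 superoxide dismutases (Sod1, Sod2 and Sod3), the peroxide-removing enzymes Gpx3 and Cat, and the inducible enzymes Nqo1 and Hmox1. Droplet-based single cell RNA sequencing of digested proximal PAs from C57BL/6J wild type mice gave 6 libraries. Young libraries 1 and 2 came from mice of 3 months. The former was labelled without a sex and given as male by the authors, and the latter was labelled female. Old libraries 1, 2, 3 and 4 were from animals of 20, 24, 28 and 27 months. The oldest was labelled female and old 4 male, and old 1 and old 2 were given as male by the authors. All mice were untreated and of the same strain, although some of the old ones came from a different colony, which cannot be told apart from age here. The arteries were cut out with surrounding tissue, so airway and mesothelial cells were present.

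NADPH oxidases pass electrons from NADPH across a membrane to oxygen. Nox4 is active without a stimulus, releases mainly hydrogen peroxide and is known from the vessel wall, whereas Cybb encodes the catalytic subunit of the phagocyte oxidase, which makes superoxide once cytosolic subunits join it. Cyba encodes the membrane partner p22phox that both need. Superoxide dismutases turn superoxide into hydrogen peroxide in the cytosol (Sod1), in mitochondria (Sod2) and in the extracellular matrix (Sod3), and catalase and glutathione peroxidases then remove the peroxide.

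After filtering, 15311 cells remained of 15622 barcodes (935 to 4067 per library). Levels are given as CPM, the counts of unique molecular identifiers (UMIs) of a gene summed over all cells of a type in a library and divided by the summed UMIs of all genes, scaled to 1e+06. Several libraries stood apart. Total UMIs ran from 6355125 (young 2) to 50436562 (old 3), and median UMIs per kept barcode from 801.5 to 8150. Young 1, young 2 and old 2 shared 130, 155 and 212 cell barcodes pairwise, mostly airway epithelial cells, against at most 4 for any other pair. Old 1, given as male, held 2395 Xist counts beside 205 of Ddx3y, 15 of Uty and 2 each of Eif2s3y and Kdm5d. Old 4, labelled male, held 46, 5800, 2209, 1819 and 494 counts of these genes in the same order. Old 4 held 1257 and 654 cells in unnamed clusters that carried all 8 smooth muscle markers but were led by Rgs5 and by Tnnt2, and young 1 held 209 cells in an unnamed macrophage-like cluster led by Marco. Droplets without a cell held UMIs of every member, so the CPM of those droplets is given as background. From CPM alone, fewer cells holding a gene and less of it per cell cannot be told apart.

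The promoters of both catalytic oxidase subunits are shown because Nox4 and Cybb were found in different cells. RefSeq windows (GRCm38.p6) from 250 bases before to 50 bases after the start were matched for 8 of the 10 members. Capitals mark the letters GAGGAA, the core bound by the myeloid factor PU.1, on either strand (TTCCTC when read on the other).
Nox4 (chr7:87246399-87246698, plus strand): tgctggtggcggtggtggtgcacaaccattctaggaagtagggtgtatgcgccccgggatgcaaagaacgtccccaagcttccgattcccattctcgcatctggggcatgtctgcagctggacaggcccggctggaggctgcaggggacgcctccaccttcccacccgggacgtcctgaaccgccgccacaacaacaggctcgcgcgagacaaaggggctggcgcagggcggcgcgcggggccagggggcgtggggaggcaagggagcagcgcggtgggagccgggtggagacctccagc
Cybb (chrX:9469275-9469574, minus strand): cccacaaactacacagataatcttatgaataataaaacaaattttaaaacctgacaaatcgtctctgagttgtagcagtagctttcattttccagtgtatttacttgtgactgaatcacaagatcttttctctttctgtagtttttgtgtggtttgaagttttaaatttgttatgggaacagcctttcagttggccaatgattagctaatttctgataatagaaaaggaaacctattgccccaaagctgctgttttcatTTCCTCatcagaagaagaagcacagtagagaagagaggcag
The letters occurred in 1 place in the Cybb window and in none in the Nox4 window, and in 28.3% of all 32851 windows of the same length. They were present in 4 of the 8 member windows (Cybb, Sod2, Gpx3 and Cat). The antioxidant response element core TGACNNNGC, searched on both strands, lay in 1 of the 8 (Sod1) and in 12.4% of all windows. It does not share letters with the other motif. These matches describe the letters only.

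The catalytic oxidase genes Nox4 and Cybb lay in different cell types. Nox4 was found in smooth muscle cells (SMCs) and fibroblasts (FBs), Cybb in macrophages (MΦs), neutrophils, monocytes and dendritic cells, and B cells, and Cyba in most types. Statements on the highest mean are limited to types with 3 or more libraries. Between FBs, SMCs, blood vascular endothelial cells (ECs), MΦs, and monocytes and dendritic cells, 9 of 10 members differed (edgeR quasi-likelihood F test with library as block, adjusted p under 0.05), against 63.6% of 11430 genes tested, so most genes differed between these types. Cat was the exception (adjusted p = 0.398, edgeR).

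**Figure D1:**
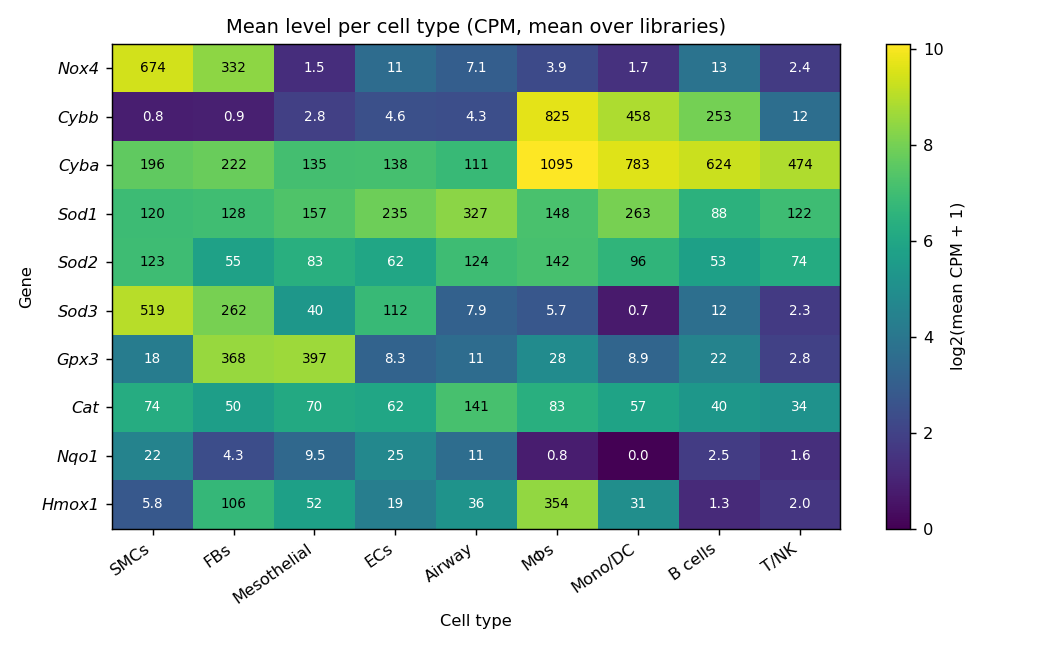
Heat map of the mean CPM of the 10 genes (rows) in 9 cell types (columns), averaged over the libraries with at least 10 cells of the type. Colour is log2(mean CPM + 1) and the printed numbers are mean CPM. Nox4 and Sod3 peak in SMCs, Cybb and Hmox1 in MΦs, and Gpx3 in FBs and mesothelial cells.

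Nox4 in SMCs was at 912 and 585 CPM in young libraries and at 247, 913 and 713 CPM in old 1, 3 and 4 (old 2 had under 10 SMCs). In FBs it was at 163 and 239 CPM in young and 137, 223, 655 and 576 CPM in old libraries 1 to 4. Old 1 was lowest in both types, and old and young overlapped in both. SMCs were above FBs in 5 of 5 libraries, but the difference of 0.87 on the log2 scale (SE 0.34) did not pass (adjusted p = 0.0536, edgeR). FBs exceeded ECs by 5.12 on the log2 scale (SE 0.43, adjusted p = 3.86e-13, edgeR), when 24.7% of genes differed between these types.

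Elsewhere Nox4 did not exceed the cell-free droplets of the same library, apart from lymphatic endothelial cells (29.9 CPM) and erythroid cells (113 CPM) of old 3, where the background was 24.3 CPM. These erythroid cells also held 4924 CPM of smooth muscle markers in sum, beside 33526 CPM in SMCs of the same library. The part of smooth muscle RNA in their Nox4 value was not tested. ECs had a mean of 10.9 CPM ± 8.94 (SD, n = 6) and MΦs 3.86 CPM ± 8.34 (SD, n = 6), and neither was above background in any library. In old 4 the gene was at 41.8 CPM in airway cells and 20.8 CPM in MΦs, beside 101 CPM in its cell-free droplets. The share of airway cells with a Nox4 UMI was 10.9% in old 4 and at most 0.24% in the other libraries. By comparison, 70.6% of SMCs and 66.9% of FBs in old 4 held one. The airway cells of old 4 also held 1456 CPM of smooth muscle markers in sum, against 6.06 to 51.9 CPM in airway cells of the other libraries. The part of smooth muscle RNA in their Nox4 value was not tested either.

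Cybb in MΦs was at 1015 and 1167 CPM in young and at 301, 780, 640 and 1050 CPM in old libraries 1 to 4. The lowest MΦ value, in old 1, was still above that library's background of 14.6 CPM. In monocytes and dendritic cells young 1 held 225 CPM, and old 1, 2 and 4 held 176, 253 and 449 CPM. Old 3 stood far above the rest at 1189 CPM. The type held different cells by library. A cluster with Cd209a and Flt3 among its leading genes held 130 cells of young 1, 10 of old 1 and 105 of old 2. A cluster led by Chil3, with Ly6c2 and Plac8, held 89 cells of old 3. Another, with Flt3 and Clec9a, held 32 cells of old 3 and 21 of old 4. The part of this make-up in comparisons with the type was not tested. Cybb in MΦs exceeded that in monocytes and dendritic cells in 4 of 5 libraries, by 0.96 on the log2 scale (SE 0.34, adjusted p = 0.0507, edgeR). In this pair 14.9% of genes differed. Old 3 was the exception, and without it the difference was 1.58 (adjusted p = 0.00107, edgeR, in a range up to 0.296 over 18 alternatives). Neutrophils held 64.5 CPM (1 count) in old 2 and 646 CPM in old 3, and the 11 alveolar macrophages of old 2 held 1468 CPM (23 counts). B cells had 253 CPM ± 76.2 (SD, n = 5), below monocytes and dendritic cells in 4 of 4 libraries that held both. SMCs and FBs had at most 3.01 CPM in any library, under background.

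Cytosolic partners of the phagocyte oxidase were found in the same cells. Ncf1 in MΦs ranged from 64.8 to 254 CPM (median 186), Ncf4 from 21.6 to 126 CPM (median 63.4), and the small GTPase Rac2 from 120 to 271 CPM (median 164). In monocytes and dendritic cells the medians were 126, 67.5 and 236 CPM in that order. In FBs and SMCs the medians of these 3 genes were at most 1.02 CPM.

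Cyba had its highest mean in MΦs, with 1354 and 1578 CPM in young and 1062, 1124, 915 and 536 CPM in old libraries 1 to 4. Monocytes and dendritic cells had a mean of 783 CPM ± 347 (SD, n = 5). MΦs were above them in 4 of 5 libraries, but the difference of 0.54 on the log2 scale (SE 0.31) did not pass (adjusted p = 0.274, edgeR). B cells (624 CPM ± 223, SD, n = 5) and T and NK cells (474 CPM ± 263, SD, n = 5) came next. FBs were at 222 CPM ± 61.2 (SD, n = 6), below MΦs (FBs minus MΦs was -2.38 on the log2 scale, SE 0.31, adjusted p = 1.43e-08, edgeR; 40% of genes differed in this pair). SMCs minus MΦs was -2.53 (SE 0.34, adjusted p = 2.94e-08, edgeR), with 45.7% of genes differing. ECs minus monocytes and dendritic cells was -2.55 (SE 0.32, adjusted p = 1.41e-08, edgeR; 37.7% of genes differed). FBs, SMCs (196 CPM ± 80.3, SD, n = 5) and ECs (138 CPM ± 51.7, SD, n = 6) were above background in every library, and lymphatic endothelial cells in 0 of 2.

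**Figure D2:**
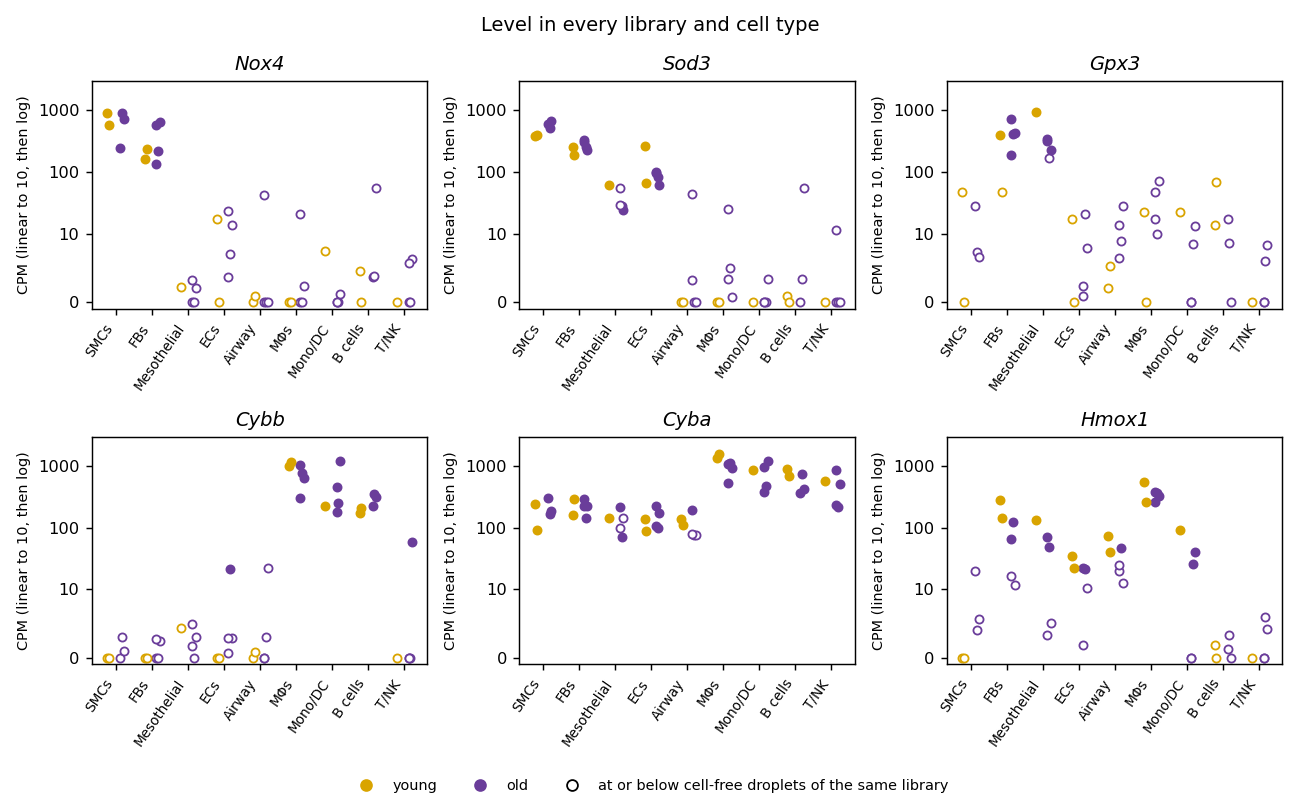
CPM (vertical axis, linear to 10 and then logarithmic) of 6 members in every library with at least 10 cells of each type (horizontal axis). Yellow points are young and purple points old libraries, and open points lie at or below the cell-free droplets of their own library. Nox4 is above background in SMCs and FBs only among the 9 types drawn, and Cyba is above background in most types.

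Among the dismutases Sod3, which is secreted and binds the extracellular matrix, was the one with its highest means in SMCs and FBs. In SMCs it was at 384 and 405 CPM in young and at 603, 523 and 679 CPM in old 1, 3 and 4. In FBs it was at 250 and 191 CPM in young and 313, 258, 228 and 335 CPM in old libraries 1 to 4. SMCs were higher in 5 of 5 libraries, by 1.00 on the log2 scale (SE 0.38, adjusted p = 0.0488, edgeR; 24.4% of genes differed). This call was lost in 10 of 18 alternatives, with adjusted p from 0.00653 to 0.264 (edgeR or DESeq2). ECs held 263 and 66.9 CPM in young and 95.2, 84.4, 62.1 and 101 CPM in old libraries 1 to 4, with young 1 standing apart. FBs exceeded ECs by 1.54 on the log2 scale (SE 0.38, adjusted p = 0.00204, edgeR). Mesothelial cells came next at 39.7 CPM ± 17.4 (SD, n = 5), above background in 3 of them, and MΦs, monocytes and dendritic cells, lymphocytes and airway cells were under background in every library.

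Sod1 and Sod2 were more even. Sod1 had its highest mean in airway epithelial cells, with 297 and 250 CPM in young and 240, 258, 422 and 492 CPM in old libraries 1 to 4. Monocytes and dendritic cells (263 CPM ± 82.9, SD, n = 5) and ECs (235 CPM ± 84.4, SD, n = 6) followed. FBs and SMCs were lower than monocytes and dendritic cells, with log2 differences of -0.88 (SE 0.31, adjusted p = 0.0219, edgeR) and -0.86 (SE 0.34, adjusted p = 0.0357, edgeR), and 41.7% and 45% of genes differing. These calls were lost in 9 and 10 of 18 alternatives, and with cells thinned to 500 UMIs the differences were 0.20 and 0.28 (adjusted p = 0.744 and 0.659, edgeR). Sod1 was above background in 3 of 6 libraries in FBs, 2 of 5 in SMCs and 3 of 6 in MΦs. Its difference among the 5 types (adjusted p = 0.0166, edgeR F test) was itself lost in 4 alternatives (0.0515 to 0.230), among them without old 4 (0.0841) and without young 1 (0.0515).

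Sod2 had its highest mean in MΦs (142 CPM ± 67.3, SD, n = 6), where young libraries held 226 and 173 CPM and old 1 to 4 held 75.1 to 205 CPM. On the log2 scale FBs minus MΦs was -1.17 (SE 0.30, adjusted p = 0.00123, edgeR) and ECs minus MΦs was -1.15 (SE 0.30, adjusted p = 0.00152, edgeR; 36.5% of genes differed). The former call was lost without old 3 and old 4 together (adjusted p = 0.0560, edgeR, from 1.72e-05 over 18 alternatives). SMCs (123 CPM ± 94.7, SD, n = 5) were also above FBs (FBs minus SMCs was -1.01, SE 0.31, adjusted p = 0.0127, edgeR), a call that was lost in 4 of 18 alternatives (range 0.000186 to 0.485). These were without old 3 (adjusted p = 0.0773, edgeR), without old 4 (0.215), without both (0.485) and with doublets kept (0.0518).

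Gpx3, a selenium-containing glutathione peroxidase that cells secrete, belonged to FBs and mesothelial cells. FBs held 400 and 47.8 CPM in young and 189, 417, 437 and 719 CPM in old libraries 1 to 4. The low value, in young 2, rested on 1 count and lay under the 383 CPM of its cell-free droplets. FBs were above background in 5 of 6 libraries and mesothelial cells in 4 of 5. Mesothelial cells held 937 CPM in young 1 and 338, 168, 226 and 315 CPM in old libraries 1 to 4, which was above the FBs in 2 of the 5 libraries with both types. FBs exceeded SMCs by 5.18 (SE 0.66, adjusted p = 4.6e-07, edgeR) and ECs by 6.48 (SE 0.62, adjusted p = 2.32e-09, edgeR) on the log2 scale. Cell-free droplets held 81.1 to 383 CPM of Gpx3, and SMCs, ECs, MΦs, B cells and airway cells were under their own library's value throughout.

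Cat, the peroxisomal catalase, was low, with 37.8 to 122 CPM in cell-free droplets. It exceeded them in all 6 libraries for airway cells and in 5 of 6 for MΦs, but in 1 of 5 each for B cells and for T and NK cells. Its highest mean among types with 3 or more libraries was in airway epithelial cells, at 111 and 128 CPM in young and 61.6, 124, 186 and 234 CPM in old libraries 1 to 4. Within them the cluster led by genes of ciliated cells (Tmem212, Ccdc153, Dnah12) held 164 to 282 CPM, the secretory cluster led by Scgb1a1 held 55.1 to 179 CPM and the basal cluster with Krt5 and Trp63 held 40.2 to 141 CPM. MΦs followed with 82.9 CPM ± 35.3 (SD, n = 6). Erythroid cells, which are rich in catalase, held 144 CPM (3 counts) in old 2 and 370 CPM in old 3, the only libraries with at least 10 of them.

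Nqo1 and Hmox1 are the members best known as targets of the oxidant-sensing factor NRF2, and they lay in different cells. Nqo1, which reduces quinones, was highest in lymphatic endothelial cells of old 3 (66.8 CPM) and old 4 (69.6 CPM). ECs had a mean of 25.0 CPM ± 14.9 and SMCs 22.2 CPM ± 18.1 (SD, n = 6 and 5), whereas the fitted difference pointed the other way, with SMCs minus ECs at 0.76 on the log2 scale (SE 0.43, adjusted p = 0.194, edgeR; 31.6% of genes differed). FBs were lower than SMCs (FBs minus SMCs was -1.97, SE 0.44, adjusted p = 0.000539, edgeR). Each young library held at most 2 counts of it in these types. In monocytes and dendritic cells it had 0 counts in all 5 libraries, where 3 counts would have given from 3.35 CPM (old 3) to 75.3 CPM (old 1).

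Hmox1, which breaks haem down to biliverdin, carbon monoxide and iron, was led by MΦs. They held 542 and 259 CPM in young and 372, 360, 329 and 264 CPM in old libraries 1 to 4. MΦs exceeded FBs in 6 of 6 libraries, by 2.82 on the log2 scale (SE 0.51, adjusted p = 6.39e-05, edgeR), and monocytes and dendritic cells by 3.42 (SE 0.57, adjusted p = 0.000133, edgeR). The level also varied among MΦ clusters. In young 1 the cluster led by Cxcl2 and Lst1 held 1076 CPM (17 counts) and the cluster led by Prg4 250 CPM, and in old 2 the same clusters held 817 and 209 CPM. Hmox1 was among the 10 leading genes of the former. In young 2 the former held 305 CPM (2 counts) beside 252 CPM, and in old 3 and old 4 it held 190 and 143 CPM.

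The clusters of FBs and SMCs carried different amounts of Nox4, although none of the 10 members was used for clustering. FBs fell into a cluster led by Abca8a and Svep1 (cluster 2) and a cluster led by Cxcl1, Ptx3 and Il6 (cluster 11). Cluster 11 held 112 of the 120 young FBs, all but 5 FBs of old 1 and 199 of the 216 FBs of old 2, while cluster 2 held 754 of 816 in old 3 and 457 of 493 in old 4. In cluster 2 Nox4 was at 677 CPM (13 counts) in old 2, 661 CPM in old 3 and 583 CPM in old 4. In cluster 11 it was at 124 and 239 CPM in young and at 135, 176, 204 and 152 CPM in old libraries 1 to 4. All 3 libraries with both clusters had more Nox4 in cluster 2, and within cluster 11 old and young overlapped. The clusters also differed in depth in the deep libraries. In old 3 cluster 2 held 5220021 UMIs over 754 cells and cluster 11 held 63623 over 62 cells. In old 4 these were 2861079 UMIs over 457 cells and 45964 over 36 cells. The part of depth and RNA quality in the Nox4 values was not tested.

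In SMCs, cluster 14 held 55 of the 56 young cells and cluster 4 held 845 of 934 cells of old 3 and 263 of 435 of old 4. Cluster 4 was led by Carmn and Itih4 and cluster 14 by mitochondrial tRNA genes and pseudogenes. Tnnt2, which led an unnamed cluster of old 4, was also among the 10 leading genes of cluster 14, with Tcap and Tagln. The median UMI count of the cells, relative to that of their own library, was 1.16 in cluster 4 and 0.365 in cluster 14. The part of RNA quality in the values was not tested. Nox4 was at 921 and 751 CPM in cluster 4 and at 514 and 471 CPM in cluster 14 of old 3 and old 4. Cluster 14 of young 1 and 2 held 898 and 585 CPM (18 and 13 counts), and that of old 1 held 248 CPM. Within cluster 14, unlike in all SMCs, old 1, old 3 and old 4 lay below both young libraries. The share of all genes with this pattern in the cluster was not counted. Within cluster 14 the log2 fold change of Nox4, old minus young, was -0.53 (SE 0.49, adjusted p = 0.822, edgeR), against 0.08 in all SMCs. Clusters were not tested against each other.

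**Figure D3:**
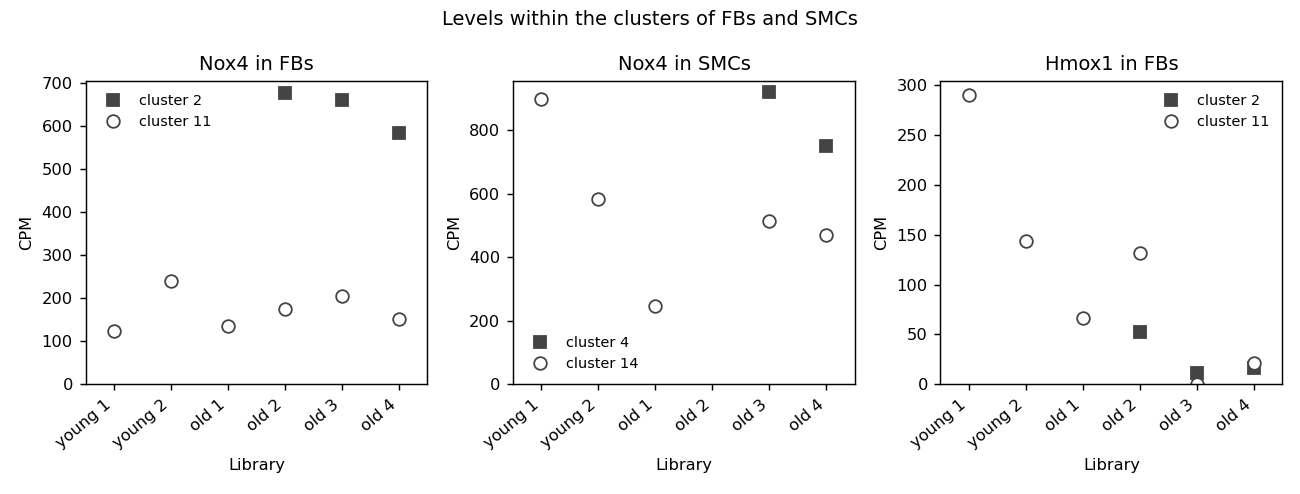
CPM of Nox4 in FBs (left) and SMCs (middle) and of Hmox1 in FBs (right) for each library, split by cluster where a cluster held at least 10 cells of the library. Squares are clusters 2 and 4, and open circles are clusters 11 and 14. Nox4 in FBs lies between 583 and 677 CPM in cluster 2 and between 124 and 239 CPM in cluster 11.

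Age was compared over libraries in the 6 types with at least 10 cells in 2 young and 2 old libraries. None of the members tested had an adjusted p under 0.05 in FBs (8 tested), SMCs (6), ECs (5), MΦs (6), airway cells (5) or B cells (3), and the unadjusted p was under 0.05 for 1 of them, Sod1 in FBs. Low counts kept Cybb and Nqo1 out of the test in FBs, Cybb, Gpx3, Hmox1 and Nqo1 in SMCs, these and Nox4 in ECs, and Gpx3, Nox4, Nqo1 and Sod3 in MΦs. Airway cells lacked Cybb, Gpx3, Nox4, Nqo1 and Sod3, and B cells kept Cybb, Cyba and Sod1. With DESeq2 the count of members was also 0 in all 6 types. Over all genes edgeR called 3 in FBs (0.0441% of 6798) and 0% in the other 5 types, and DESeq2 called 0.0294%, 0.0766%, 0.017%, 0.0166%, 0% and 0% in the order above. An unadjusted p under 0.05 was found for 6.28%, 8.76%, 5.95%, 7.46%, 6.17% and 6.44% of all genes in the same order. Each library was taken as 1 animal, from the authors' description of the mice, since the labels name no animals.

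Of the 8 members tested in FBs, 1 had all old libraries above the young pair (17% of all genes tested did). Another had all of them below it (7.5%). Untested Nqo1 was also higher in every old library, with 0 counts in young and 55 in old. A count of 1 would have given 12.5 CPM in young 1 and 47.8 CPM in young 2. The old mean was 6.40 CPM, so the young libraries were too shallow to show a difference. Nqo1 was above background in 2 of the 6 libraries. Sod1 was at 75.0 and 47.8 CPM in young (7 counts in all) and at 155, 149, 130 and 214 CPM in old libraries 1 to 4, a log2 fold change of 1.27 (SE 0.60, adjusted p = 0.789, edgeR). Its level in cell-free droplets was 188, 68.3, 77.7 and 187 CPM in old libraries 1 to 4 and 89.1 and 111 CPM in young, and its part in the difference was not tested. Hmox1 was at 275 and 143 CPM in young and at 64.6, 124, 11.5 and 16.2 CPM in old libraries 1 to 4, a log2 fold change of -2.30 (SE 1.37, adjusted p = 0.823, edgeR). The 143 CPM of young 2 was 3 counts, and old 3 and old 4 lay under their backgrounds of 29.4 and 24.5 CPM.

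The low Hmox1 levels in FBs coincided with other measures. The summed level of 10 genes of the stress of dissociation (Fos, Jun, Hspa1a and others) was 11651 and 11133 CPM in young FBs and 8993, 12738, 1788 and 7404 CPM in old libraries 1 to 4, so that the libraries lowest in Hmox1 were also lowest in this sum. In cluster 11 alone Hmox1 was at 290 and 143 CPM in young and at 66.3, 132, 0 and 21.8 CPM in old libraries 1 to 4, with 3 counts in young 2 and 1 in old 4. The log2 fold change there was -1.67. In all FBs the log2 fold change was -1.12 without old 3 and old 4, and -0.71 with the shared-barcode libraries as covariate. The part of stress in the difference was not tested.

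Of the 6 members tested in SMCs, Sod1 and Sod3 were higher in every old library, as were 23.2% of all genes tested. No tested member was lower in all of them (12.1% of genes). Untested Hmox1 was also higher in each, with 0 counts in young and 45 in old, under background throughout. The median log2 fold change of all genes tested in SMCs was 0.53. Sod3, with the levels given above (mean 394 CPM ± 14.8 in 2 young and 602 CPM ± 78 in 3 old libraries), had a log2 fold change of 1.01 (SE 0.58, adjusted p = 0.584, edgeR). With library size alone as scaling the Sod3 value was 0.58 and the median of all genes 0.12. Sod1 had 3 counts in young SMCs, and its pooled old to young ratio of 2.28 had a 95% counting interval of 0.778 to 11.1.

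In MΦs all 6 members tested had log2 fold changes below 0. Their median was -0.65, while that of all genes was 0.30. The median of all genes was 0.11 with cells thinned to 500 UMIs and 0.05 without old 3 and old 4. Of the 6, 2 lay above 0 with the shared-barcode libraries as covariate, and 1 without young 1 or without old 3 and old 4. For Cyba, Sod1 and Cat no old library reached the lower of the young values, as for 7.4% of all genes. No tested member showed the opposite (15.8%). Untested Sod3 did, with 0 counts in young and 39 in old, under background throughout. Cyba, with the levels given above, had a log2 fold change of -0.62 (SE 0.60, adjusted p = 0.778, edgeR). Sod1 was at 226 and 173 CPM in young and 109, 150, 67.7 and 160 CPM in old libraries 1 to 4 (log2 fold change -0.66, SE 0.55, adjusted p = 0.743, edgeR). Old 1, 3 and 4 were here under their own cell-free droplets (188, 77.7 and 187 CPM). Cat was at 113 and 130 CPM in young (11 counts) and 54.6, 35, 87.6 and 77.3 CPM in old libraries (log2 fold change -0.89, SE 0.53, adjusted p = 0.674, edgeR).

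Different clusters held young and old MΦs. Of 98 young MΦs, 68 were in the cluster led by Prg4 and Alox15 (m4), which held 93 cells of old 2 and 0 of old 1, 3 or 4. Within m4 Cyba was at 1681 and 1612 CPM in young 1 and 2 and 1367 CPM in old 2, and Cybb at 1287, 1234 and 916 CPM. In the cluster led by Cxcl2 and Lst1 (m5), Cyba was at 823 and 1373 CPM in young and 438, 1141 and 573 CPM in old 2, 3 and 4, and Cybb at 506 and 763 CPM against 398, 211 and 1863 CPM. Old and young overlapped there for both genes. In the cluster led by Ccl8 and Cd209f, which held most MΦs of old 3, Cyba was at 810 CPM in that library and Cybb at 583 CPM. The part of this make-up in the age difference was not tested.

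The age differences of Sod1 pointed in opposite directions in FBs and MΦs. The interaction, MΦ minus FB, was -1.87 on the log2 scale (SE 0.76, unadjusted p = 0.0252, adjusted p = 0.960, edgeR). For Hmox1 it was 2.62 (SE 0.95, unadjusted p = 0.0148, adjusted p = 0.960, edgeR). No gene of 9545 passed (0%), and 4.3% had an unadjusted p under 0.05.

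In ECs and airway cells no tested member separated old from young, where 12% and 9% of all genes were higher in every old library and 7.74% and 6.77% lower. Untested Nqo1 was lower in every old EC library, with means of 39.8 CPM in young and 17.6 CPM in old. These rested on 4 and 91 counts, and ECs were above background in 5 of 6 libraries. Untested Cybb was higher in every old EC library (0 counts in young, 15 in old), above background in 1 library. Untested Gpx3 was higher in every old airway library (7 counts in young, 42 in old), under background throughout. In B cells Cybb was at 170 and 207 CPM in young and at 221, 351 and 313 CPM in old 2, 3 and 4, a log2 fold change of 0.72 (SE 0.57, adjusted p = 0.852, edgeR). That pattern was shared by 19.4% of all genes in B cells, and 13.1% were lower.

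**Figure D4:**
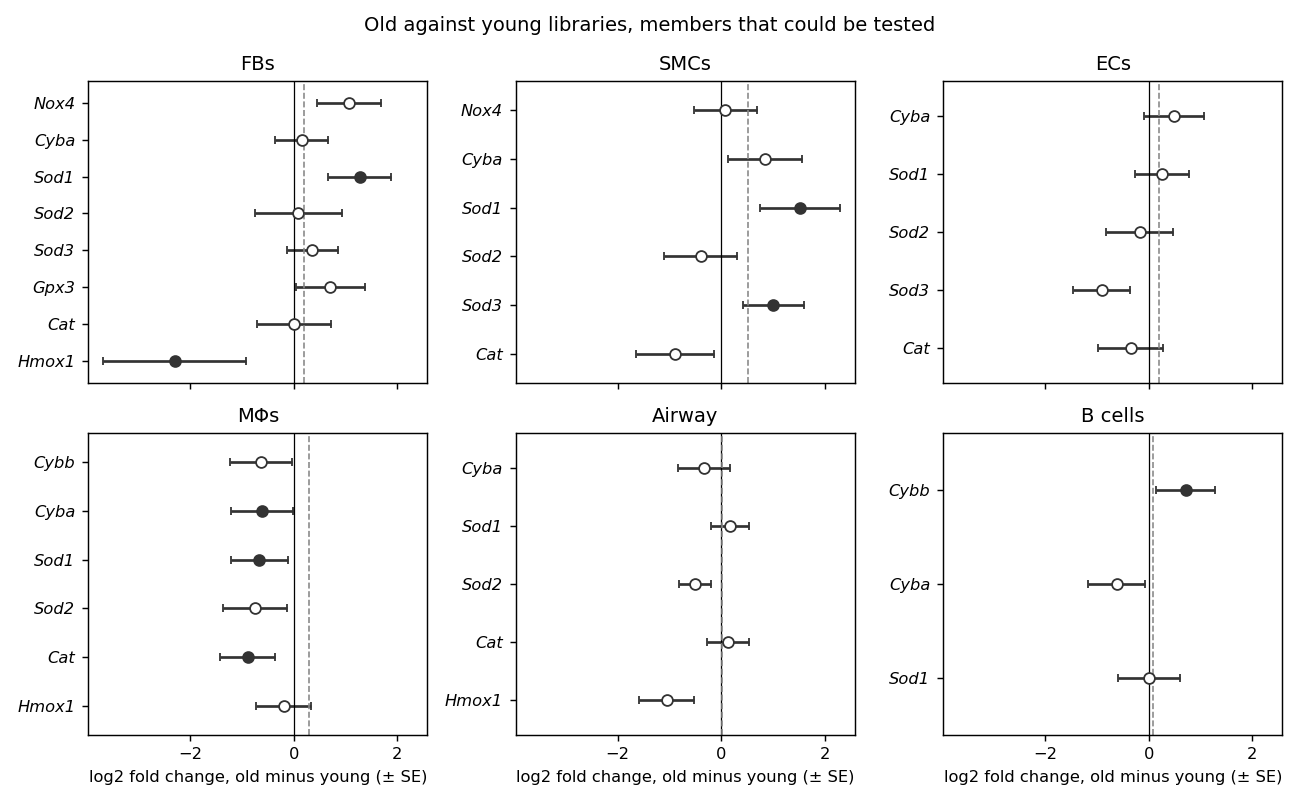
Log2 fold change, old minus young, with its standard error for each member tested in 6 cell types (edgeR). Filled points are members whose old and young libraries did not overlap, and the dashed line is the median of all genes tested in the type. No member passed an adjusted p of 0.05, all 6 values in MΦs lie below 0, and Sod1 in SMCs rests on 3 young counts.

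Of 61 further genes of the pathway (oxidase partners, glutathione and thioredoxin enzymes, copper, haem and iron handling, regulators and other detoxification), none had an adjusted p under 0.05 (edgeR). In FBs 40 were tested, 21 with a log2 fold change above 0 and 19 below (1 with an unadjusted p under 0.05). The counts above and below 0 were 25 and 13 in SMCs (3 unadjusted), 19 and 14 in ECs (3), 22 and 25 in MΦs (3), 20 and 24 in airway cells (3) and 7 and 15 in B cells (3). Their median was 0.06 in FBs against 0.20 for all genes, and -0.05 in MΦs against 0.30.

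The genes with the level pattern most like each member were sought over 28 sums of library and type in the 5 main types among 7564 genes, by Pearson's r of log2(CPM + 10). These sums share libraries and depth, so r is a description. Nox4 was most like Vldlr (r = 0.974) and Ccn5 (0.970), Sod3 like Lhfp (0.968) and Ecm2 (0.964), Gpx3 like Smoc2 (0.904) and Inmt (0.893). Cybb was most like Btk (0.985) and Ctss (0.981), Cyba like Cd14 (0.903) and Tyrobp (0.903), and Hmox1 like Plau (0.843) and Cebpa (0.835). Lower values were found for Nqo1 with Ccdc141 (0.880) and Pawr (0.869), Sod2 with Ufm1 (0.817) and Ube2a (0.784), Cat with Rab1b (0.840) and Cct6a (0.778), and Sod1 with D16Ertd472e (0.776) and Tlnrd1 (0.754).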

How the data were processed

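Proximal PAs of 2 young and 4 old mice were analysed by single cell RNA sequencing. The authors digested the tissue with collagenase and elastase, and trimmed, aligned and counted reads with cutadapt, STAR and STARsolo (GRCm38.p6 in the submitters' processing notes, versions not given in the sources used here). The deposited values are raw UMI counts for every barcode, with no normalization. The identifiers matched the annotation at hand for few genes, so symbols are used and coordinates come from RefSeq only. The third young library was not analysed here.

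Barcodes with at least 500 UMIs, 300 genes and at most 20% mitochondrial UMIs were kept (15622), and 311 likely doublets removed (scrublet). Cells were clustered in scanpy 1.11.5 (2000 variable genes without the members and their wider list, 40 components, 15 neighbours, Leiden resolution 1.0) and named where more than 40% of a type's detected markers, and no fewer than 3, were raised and no other type's markers led, a rule revised after the clusters were seen. The 2863 unnamed cells entered no comparison, except that some were put back in an alternative. Counts were summed per library and type (at least 10 cells) and tested with edgeR 4.0.16 (TMM, quasi-likelihood F test, R 4.3.3), with Benjamini-Hochberg adjustment over genes detected in more than 5% of the cells of 3 libraries or more. DESeq2 1.42.0 was an alternative. Background was taken from barcodes ranked 20001 to 70000 by UMIs. Intervals and floors of 3 counts cover counting error only. Scripts were tested on simulated data.

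A log2 fold change between old and young was printed where the adjusted p was under 0.05 or old and young libraries did not overlap. Nox4 in SMCs was printed besides, to set its cluster beside the whole type. Of the wider list only the oxidase partners Ncf1, Ncf4 and Rac2 were named, as no gene of it passed that threshold. The members, gene lists, markers and tests were chosen with earlier results of these data known. Alternatives were other cell and gene filters, marker scores for types, doublets kept, shared barcodes left out or as covariate, no TMM, thinning to 500 UMIs, each library left out and, added after seeing the data, 1 cluster per type, no old 3 and old 4, and the unnamed clusters put back.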

Additional observations from a re-analysis of the deposited data

Results flagged for a closer look

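Of 60 sets of 4 old libraries (a member in a type), 12 had a library far from the other old ones by Dixon's test, where chance flags about 1 in 20. Old 4 stood apart for Nox4 in airway cells (41.8 CPM, others 0) and in MΦs (20.8 CPM), and for Sod3 in airway cells (44.0 CPM), all below its cell-free droplets (101 and 95.9 CPM). Old 2 stood apart for Sod2 in MΦs (205 CPM, others 75.1 to 89.5 CPM), for Cybb in ECs (21.1 CPM, 3 counts) and for Cat in mesothelial cells (112 CPM). Old 3 stood apart for Cybb in airway cells (22.1 CPM, 7 counts) and in T and NK cells (58.1 CPM, 28 counts, others 0), and for Cat in FBs (62.3 CPM, others 54.2 to 54.6 CPM). Old 1 stood apart for Cyba in airway cells (191 CPM), for Sod1 in T and NK cells (154 CPM, 4 counts) and for Cat in monocytes and dendritic cells (50.2 CPM, 2 counts).

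The unnamed clusters, which the reported fits left out, held members at high levels. In old 4 Nox4 was at 763 CPM in the Rgs5-led cluster (1257 cells) and 677 CPM in the Tnnt2-led cluster (654 cells), and Sod3 at 675 and 467 CPM. Together the unnamed clusters held 81.2% of the Nox4 UMIs of that library. In young 1 the Marco-led cluster held Cybb at 557 CPM and Hmox1 at 840 CPM, and unnamed cells held 56.2% of the library's Hmox1 UMIs.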

How the results depend on the processing

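No member passed an adjusted p of 0.05 between old and young under any alternative that could be fitted in any of the 6 types, and the directions of the 8 log2 fold changes whose libraries did not overlap were kept in all of them (17 to 19 alternatives per value). The Hmox1 value in FBs ranged from -3.13 to -0.71, Sod1 in FBs from 0.82 to 2.04, Sod3 in SMCs from 0.58 to 1.33, and Cyba in MΦs from -0.83 to -0.15. Counts over all genes moved more. They ranged from 0 to 20 in FBs (3 in the reported fit), and from 0 in the reported fit to 188 in SMCs (without old 1), 9 in ECs, 53 in MΦs, 173 in airway cells (these 3 with no gene filter) and 111 in B cells (without old 2). Between types, 9 members passed in the reported fit and 6 to 9 in the alternatives, fewest without old 3 and old 4, with Sod1 or Sod2 lost or Nqo1 not tested. Nox4 in SMCs against FBs passed in 9 of 18 alternatives (adjusted p 0.0163 to 0.351), Cybb in MΦs against monocytes and dendritic cells in 6 of 18 (0.00107 to 0.296). Sod1 in FBs and in SMCs against monocytes and dendritic cells turned to 0.20 and 0.28 when thinned. The cause was not tested. The stricter minimum of UMIs and genes gave no fit in FBs, SMCs, ECs and B cells, the shared-barcode covariate none in SMCs, and single clusters none in MΦs and B cells. Old and young libraries were taken as different animals, so age could not be compared in pairs. Comparisons between types took library as block. Young libraries limit the depth: SMCs held 24 and 32 cells there, and 3 counts of a gene equalled 144 and 135 CPM.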
